A study of Mus musculus with 8 samples.

Results

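Col4a1, Fn1, Postn, Sparc, Bgn and Fstl1 encode secreted proteins of the basement membrane and of the scar that forms after a heart attack. The 6 genes were chosen by name with earlier results of these data known, so that all 6 are listed is not a result. Every peak of N6-methyladenosine (m6A) that carried the gene ID of one of them was taken. They held 31 of the 581 peaks in the authors' 2 deposited tables. These were 7 of 116 peaks for infarcted against sham-operated hearts, in 4 of the 6 genes, and 24 of 465 peaks for infarcted hearts labelled aavFto against infarcted hearts labelled aavgnp, in all 6 genes. Fn1 and Fstl1 had a listed peak in the aavFto table only, and a gene that is not listed for MI may still have had a peak that changed less.

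The libraries came from left ventricle of wild-type C57BL/6 mice. Each of 4 conditions had 1 input library and 1 MeRIP library: sham surgery, myocardial infarction (MI), and infarction combined with either aavgnp or aavFto. In MeRIP-seq, an antibody against m6A enriches methylated fragments, which are sequenced alongside the unselected RNA, or input. The time label, 1 week after MI, was the same for all 8 libraries, the sham libraries included. The labels expand neither aavFto nor aavgnp, and give neither the promoter of a vector nor the number of animals behind a library. FTO is an enzyme that removes m6A, and aavFto is read here as a vector carrying Fto.

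Basement membranes are thin sheets around vessels and muscle cells, built on networks of type IV collagen and laminin. Fibronectin is laid down early in a wound as a provisional scaffold to which cells attach through integrins. Matricellular proteins such as periostin and SPARC sit in the matrix without being its main support, and they modulate how cells attach and how collagen is assembled. In the injured heart such proteins are known as products of activated fibroblasts.

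Each deposited peak had a fold enrichment of MeRIP over input, an enrichment p-value, and a log2 change with its own p-value and false discovery rate (FDR). Since the headers do not state the sign of that change, positive values are taken to mean higher in MI than in sham, and higher with aavFto than with aavgnp. If a table were coded the other way, all of its directions given here would flip. Each group had 1 library, so no difference was checked across replicates, and the p-values of the authors compare libraries rather than conditions. The input levels of these transcripts were not analysed here, so more cells of a type, more RNA per cell and more m6A per RNA cannot be told apart. The depth of the libraries is unknown. Markers of heart muscle were present in both tables, with 3 of 10 listed in the MI table and 10 of 10 in the aavFto table.

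The first comparison addressed how m6A differed between infarcted and sham-operated ventricle. All 7 peaks of the matrix genes were positive in the authors' deposited table, against 84.5% of all 116 listed peaks. Their log2 changes ran from 2.46 to 6.58, with a median of 5.08, against a median of 1.92 over all listed peaks. Every listed peak of this table (100%) had a change of at least 1 in size. Each of the 7 had a change of at least 2, which 46.6% of all listed peaks had in the positive direction. None passed a differential FDR of 0.05 in the authors' test, a threshold that 14.7% of all listed peaks passed. At an unadjusted p under 0.05 there were 3 of the 7, against 21.6% of all listed peaks in the positive direction.

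Col4a1 encodes a chain of type IV collagen, the network-forming collagen of the basement membrane. It had 2 peaks after MI, both on the minus strand of chromosome 8 (mm10, as are all positions here). The peak from 11219098 to 11219188 was a single stretch of 91 nt, and the authors' deposited table gave it a change of 3.80 (p 0.132, FDR 0.643). The other, from 11239158 to 11241172, covered 150 nt in 4 blocks, with a change of 2.46 (p 0.285, FDR 0.741) in the authors' deposited table. Neither p was under 0.05.

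Postn encodes periostin, a matricellular protein of activated fibroblasts. Its 1 peak had the largest change of the 6 genes. It lay on the plus strand of chromosome 3 from 54385233 to 54390322 and covered 240 nt in 4 blocks. In the authors' deposited table its change was 6.58 (p 0.0219, FDR 0.20), which ranked 3 of 116 from the highest.

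Sparc encodes a collagen-binding glycoprotein, also called osteonectin, and had 3 peaks on the minus strand of chromosome 11. The peak nearest to the 3' end of the gene, 60 nt from 55394812 to 55394871, stood at 6.45 (p 0.0263, FDR 0.212) in the authors' deposited table, rank 4 of 116. A 90 nt peak from 55395316 to 55395405 stood at 5.08 (p 0.0589, FDR 0.369) in the authors' deposited table. The longest, 476 nt in 5 blocks from 55398664 to 55406575, had the smallest change of the 3 in the authors' deposited table, 3.26, and with it the lowest p and FDR of any matrix peak here (0.00724 and 0.0851). Within Sparc the larger changes came with the weaker enrichment p, at log10 p of -3.97, -5.22 and -7.21 from the 3' end upward in the authors' deposited table. Fold enrichment did not keep that order, at 26.6, 57.3 and 56.1, and the peak with the strongest p was also the longest.

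Bgn encodes biglycan, a small proteoglycan that binds collagen. Its 1 peak spanned 121 nt of the plus strand of chromosome X from 73495696 to 73495816, 180 nt from the 3' end of the gene by its middle. The authors' deposited table gave it a change of 5.12 (p 0.0575, FDR 0.368).

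**Figure D1:**
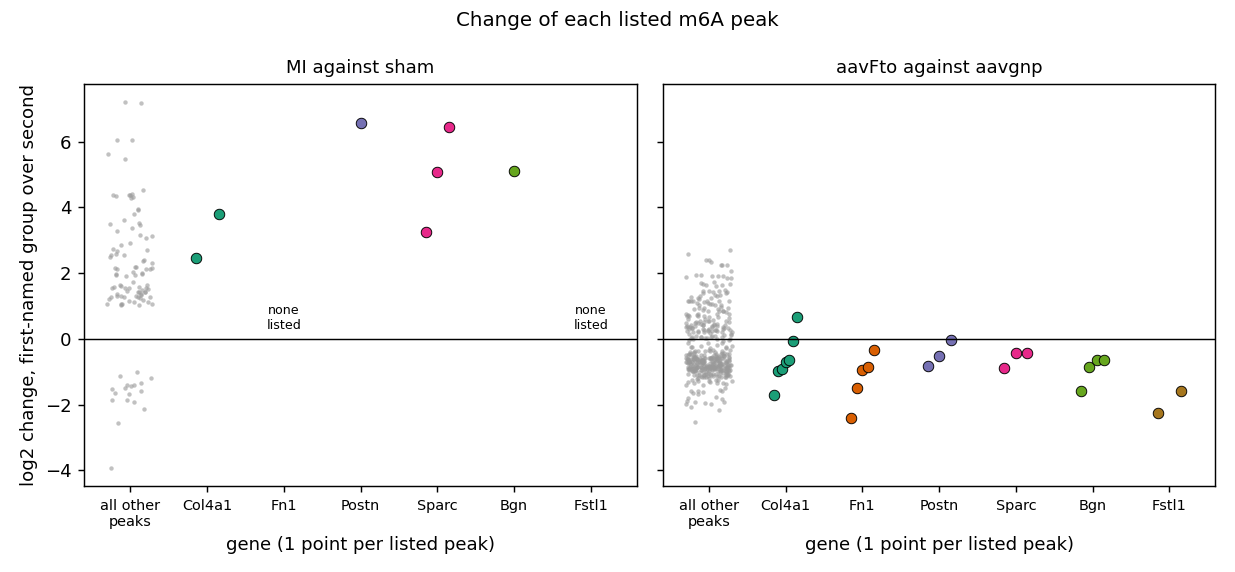
Log2 change of each listed m6A peak (vertical axis) in MI against sham (left) and aavFto against aavgnp (right), 1 point per peak, with the 6 genes in colour and all other listed peaks in grey, spread sideways for visibility. The 7 coloured points on the left lie between 2.46 and 6.58, and of the 24 on the right only 1 Col4a1 peak, at 0.67, lies above 0. The grey points leave a gap around 0 on the left because that table lists no change under 1 in size.

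The question of the second comparison was how m6A differed between infarcted hearts with aavFto and with aavgnp. Of the 24 peaks in the 6 genes, 23 were negative and 1 was positive in the authors' deposited table, against 67.3% negative over all 465 listed peaks. Their median log2 change was -0.83 (range -2.41 to 0.67), beside -0.61 over all listed peaks. A change of -1 or below was given for 6 of the 24, against 16.3% of all listed peaks, and none of the 24 had a change of 1 or above, against 11.8%. At -2 or below there were 2 of the 24, against 1.08% of all listed peaks. None of the 24 passed the FDR of 0.05 in the authors' test, against 1.72% of all listed peaks, and none had an unadjusted p under 0.05, against 4.3%. The smallest unadjusted p was 0.138, and all 24 were among the 443 of 465 listed peaks with an FDR of 0.713. The negative direction was thus frequent in the 6 genes, with no single change called.

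Col4a1 had 7 peaks in this table and ranked 3 of 271 named genes by number of peaks. Ahead of it were Plec and its partner chain Col4a2, which had 10. Its most negative peak was also the one nearest to the 3' end, from 11199707 to 11202934, with -1.72 (p 0.321) in the authors' deposited table. Next along the gene, the authors' deposited table gave -0.65 from 11213649 to 11217460 and -0.07 from 11217550 to 11220062. Further toward the 5' end, the authors' deposited table gave -0.98 and -0.93 for the peaks starting at 11220253 and 11226417. The peak from 11236084 to 11239836 was the positive one of the 24, at 0.67 (p 0.570) in the authors' deposited table, and its neighbour from 11240058 to 11244346 stood at -0.72. The 7 peaks of this 1 transcript thus ran from -1.72 to 0.67, with no steady trend along the gene.

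Fn1 encodes fibronectin and had 5 peaks, all negative, on the minus strand of chromosome 1. The peak from 71597407 to 71597677, 271 nt in 1 block, had the lowest change of the 6 genes, -2.41 (p 0.138) in the authors' deposited table, and ranked 2 of 465 from the lowest. A 150 nt peak from 71606757 to 71607942 followed at -1.50 (p 0.455) in the authors' deposited table. For the other Fn1 peaks, starting at 71593232, 71599234 and 71586192, the authors' deposited table gave -0.93, -0.87 and -0.35.

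Fstl1 encodes a secreted glycoprotein of the follistatin-like family, and both of its peaks lay toward the 3' end, on the plus strand of chromosome 16. In the authors' deposited table the peak from 37829163 to 37833952 stood at -2.25 (p 0.166), rank 3 of 465 from the lowest. The other, 179 nt from 37834131 to 37834309, stood at -1.58 (p 0.355) in the authors' deposited table. Fstl1 was the one gene of the 6 with every peak below -1.

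Bgn had 4 peaks, all of 1 block. The strongest, 331 nt from 73495546 to 73495876, stood at -1.60 (p 0.348) in the authors' deposited table. For the 3 upstream peaks, starting at 73492027, 73494736 and 73495006, the authors' deposited table gave -0.85, -0.63 and -0.63. The lowest Bgn change was thus at the 3' end, and the difference between these peaks was not tested.

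Postn and Sparc had the gene medians nearest to 0, -0.54 and -0.43. Postn had peaks at -0.81, -0.03 and -0.54 in the authors' deposited table, from 54373827 to 54376053, 54384509 to 54390442 and 54390562 to 54390742. For Sparc the authors' deposited table gave -0.87 for a peak of 772 nt in 8 blocks from 55395859 to 55409934, -0.43 for one of 60 nt from 55395227 to 55395286 and -0.42 for one of 506 nt from 55394663 to 55395168. The Sparc peak of 772 nt had the strongest enrichment of all 31, 144-fold with a log10 p of -14.2 in the authors' deposited table, and ranked 28 of 465 by that p.

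Taking each gene's most enriched peak, all 6 genes were negative in the authors' deposited table, with a median of -0.61, against 65.3% of the 271 named genes and a median of -0.56 over them. On this count of 1 peak per gene the size of the change was close to that of the whole table. All peaks of a gene were negative in 5 of the 6 genes, Col4a1 being the other, and in 32 of the 94 genes with at least 2 peaks. In 4 of the 6, Col4a1, Fn1, Postn and Fstl1, the most enriched peak was the one with the smallest change in size, and in Bgn and Sparc it was the one with the largest. Over the 94 genes the most enriched peak had the smallest change in 41 and the largest in 39.

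The strength of enrichment was set beside the change, and its part in these results was not tested. The MI peaks of the 6 genes had log10 p-values from -7.21 to -3.97 (median -4.91), weaker than the table's median of -5.48. Of the 72 other peaks within that range, 91.7% were positive, with a median change of 1.82. Across all 116 MI peaks, Spearman's rho between log10 p and change was 0.15. In the aavFto table the 24 peaks ran from -14.2 to -4.03 (median -5.75), beside a table median of -5.36. Of the 368 other peaks within that range, 243 were negative, with a median of -0.60. Across all 465 peaks weaker enrichment went with more negative change (Spearman's rho -0.47 between log10 p and change), and across the 24 peaks rho was -0.19. These peaks share libraries, and peaks of a gene share a transcript.

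**Figure D2:**
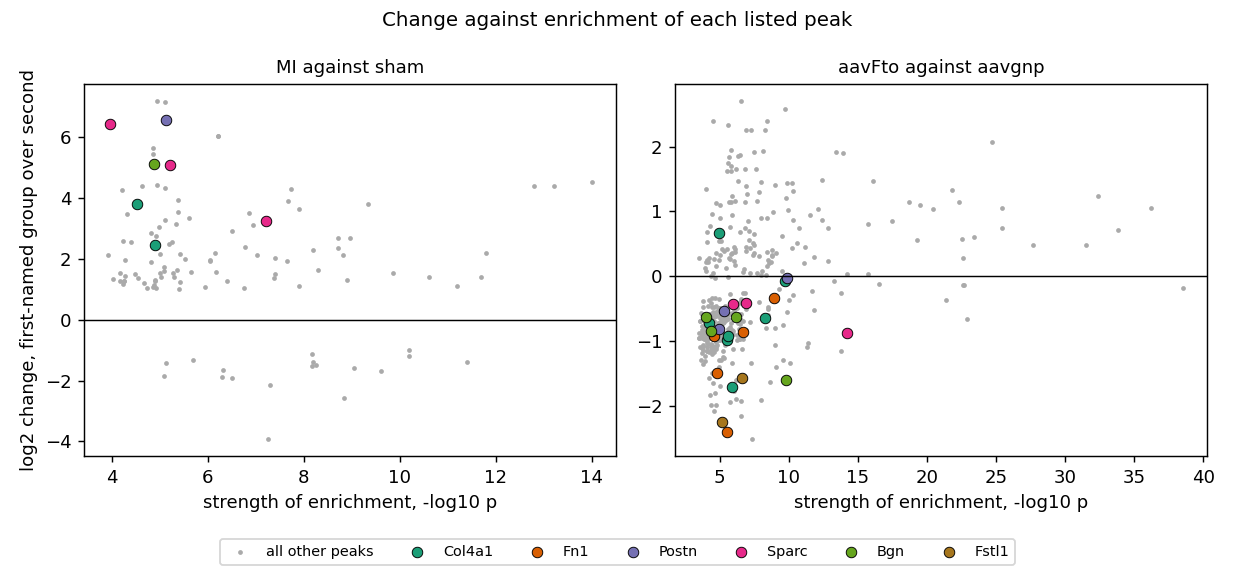
Log2 change of each listed peak (vertical axis) against the strength of its enrichment over input as -log10 p (horizontal axis), for MI against sham (left) and aavFto against aavgnp (right), with the 6 genes in colour and all other peaks in grey. On the left the coloured points lie at log10 p between -7.21 and -3.97, and on the right they reach -14.2, where the Sparc peak stands at -0.87.

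The positions of the 31 peaks were compared next. The middle of each peak lay between 63.6% and 98.5% of the way from the 5' end of its gene span in the MI table, and between 49.8% and 98.8% in the aavFto table. The medians were 83.3% and 83.7%, beside 88.1% and 83.3% over all listed peaks with a gene. Over all genes the earliest middles were at 3.90% and 0.911%, and the lower quartiles, 62.3% and 59.8%, were below those of the 6 genes, 75.8% and 73.7%. Within 1000 nt of the 3' end of the span lay 2 of the 7 peaks, in Sparc and Bgn, against 40.0% of all 105 with a gene. With aavFto against aavgnp, 4 of the 24 lay that near, in Bgn, Sparc and Postn, against 26.5% of 449. Exons were not used here, so no peak is assigned to coding sequence or to an untranslated region.

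Peaks of the 6 genes were longer than the others in the aavFto table, with a median of 256 nt against 181 nt, and 37.5% were of 1 block against 52.0%. In the MI table their median length was 121 nt against 151 nt, and 57.1% were of 1 block against 57.8%. Median fold enrichment was 65.8 against 65.7 in the MI table and 63.0 against 54.3 in the aavFto table, by the authors' deposited values. Each of these medians of the 6 genes lay within the interquartile range of its table.

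**Figure D3:**
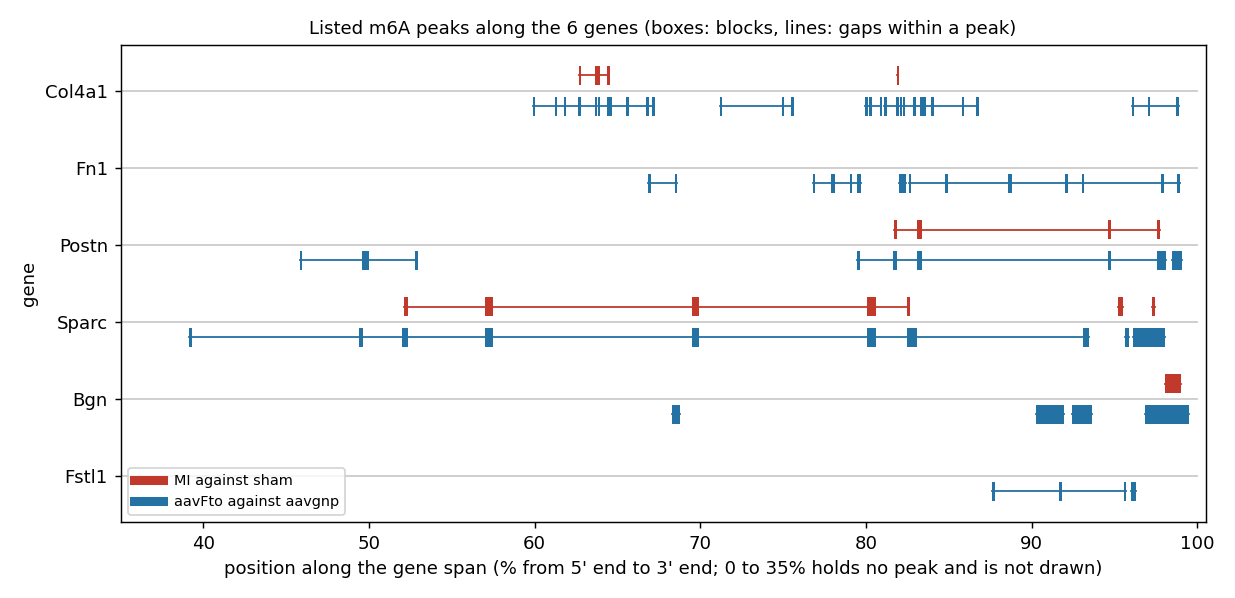
Listed m6A peaks of the 6 genes along the gene span, in percent from the 5' end to the 3' end (horizontal axis, drawn from 35%), with MI against sham in red above each line and aavFto against aavgnp in blue below. Boxes are the blocks of a peak and thin lines the gaps within it, and neighbouring peaks of 1 gene can touch at this scale. The boxes of the Postn peak and of the long Sparc peak of the MI table fall on boxes of the aavFto table, and Fn1 and Fstl1 have boxes in the aavFto table only.

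Of the 7 MI peaks, 6 shared at least 1 bp with an aavFto peak of the same gene and strand (85.7%, against 94.3% of all 105 MI peaks with a gene). The aavFto peaks overlapped were 7 of 24 (29.2%, against 19.8% of all 449). The exception was the Sparc peak from 55395316 to 55395405, which fell between 2 aavFto peaks. The long Sparc peak of the MI table lay wholly inside the aavFto peak, with blocks of 134, 121 and 122 nt that were the same in both tables. The Postn peak likewise lay wholly inside its counterpart, with blocks of 84 and 42 nt in common. All 8 inner block edges of this Sparc peak and all 6 of the Postn peak recurred in the aavFto table. The Col4a1 peak of 4 blocks shared 2 of its 6 inner edges, and no whole block, with each aavFto peak that it overlapped. Inner edges may be exon boundaries, which peaks over the same exons share by construction, so their recurrence is not read as a result.

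The tables share no library, and their values at overlapping peaks were set side by side. In the authors' deposited tables Postn stood at 6.58 after MI and -0.03 with aavFto, and Bgn at 5.12 and -1.60. For Sparc the authors' deposited tables gave 3.26 and -0.87 at the long peak, and 6.45 and -0.42 near the 3' end. The 91 nt Col4a1 peak stood at 3.80 after MI and its counterpart at -0.07 in the authors' deposited tables. The Col4a1 peak at 2.46 after MI overlapped an aavFto peak at 0.67 by 31 nt and one at -0.72 by 61 nt, in the authors' deposited tables. In all 7 pairs the change after MI was larger in size than that with aavFto, as it was in 91 of 103 overlapping pairs over all genes. The MI table lists no change under 1 in size and the aavFto table does, which favours that order. No pair of the 6 genes passed the FDR in either table.

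**Figure D4:**
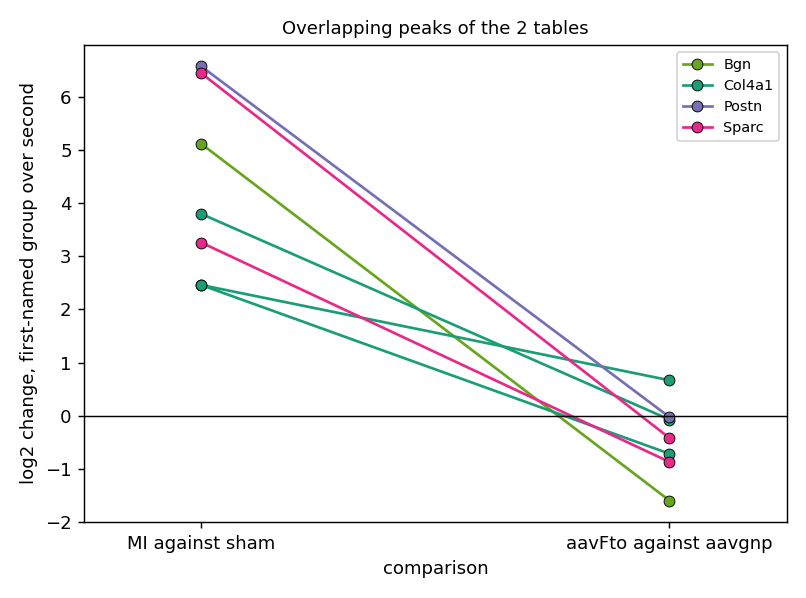
Log2 change (vertical axis) of the peaks of Bgn, Col4a1, Postn and Sparc that overlap between the tables, MI against sham on the left and aavFto against aavgnp on the right, with a line for each overlapping pair. The left ends lie between 2.46 and 6.58 and the right ends between -1.60 and 0.67.

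Other genes of the matrix were described by the most enriched peak of each. Of 16 other basement membrane genes, 1 was listed in the MI table, Hspg2, which encodes the proteoglycan perlecan, at 2.85 (FDR 0.741) in the authors' deposited table. For aavFto, 4 were listed, 2 positive and 2 negative, beside 65.3% negative over all named genes. None passed the FDR in the authors' test, which 1.72% of all listed peaks passed. The authors' deposited table gave 0.89 for Col4a2, the partner chain of Col4a1, 0.38 for the laminin chain Lamb2, -0.69 for the laminin chain Lamc1 and -0.52 for Hspg2. Over all their peaks these 4 genes had 6 positive and 8 negative, against 67.3% negative over all listed peaks. Col4a2 itself had 10 peaks, 4 positive and 6 negative, with a median of -0.30 in the authors' deposited table, beside -0.72 over the 7 peaks of Col4a1, and the difference between them was not tested.

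Of 18 other matricellular genes looked for, Sparcl1, a relative of Sparc, was the one listed, at 0.30 with aavFto in the authors' deposited table, and it had no listed peak in the MI table. None of 8 other small leucine-rich proteoglycans, the family of Bgn, was listed in either table. Of 11 matrix receptors, the authors' deposited tables listed the integrin chain Itgb5 at 3.54 after MI, and at 1.20 and -0.82 at its 2 peaks with aavFto. Dag1, which encodes the laminin receptor dystroglycan, stood at -1.25 with aavFto in the authors' deposited table. Of 11 matrix proteases, crosslinkers and inhibitors, the crosslinking enzyme Loxl1 was listed, at -1.06 with aavFto in the authors' deposited table. None of these passed the FDR in the authors' test, beside 14.7% and 1.72% of all listed peaks.

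The fibrillar collagens and their chaperone were the nearest set to compare. After MI, 4 of 6 were listed and all 4 were positive, with a median of 4.98. Over all 77 named genes, by their most enriched peak, 87.0% were positive and 7 passed the FDR in the authors' test. Of this collagen set 2 genes had a peak past that FDR, against none of the 4 listed genes of the chosen 6. With aavFto, 5 of 6 were listed, 1 positive and 4 negative, with a median of -0.29, beside 65.3% negative over all named genes. Over all their peaks these genes had 4 positive and 11 negative, against 67.3% negative over all listed peaks. The chaperone gene Serpinh1 had the lowest change of all 465 listed peaks, -2.52 (FDR 0.713) in the authors' deposited table. It stood below the lowest Fn1 and Fstl1 peaks. The difference between the sets was not tested, and direction after MI was the same in both.

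Markers of cell types differed in direction beside the matrix genes, and their part in the result was not tested. After MI 2 fibroblast markers of 13, 2 macrophage markers of 11 and 2 endothelial markers of 8 were listed, and all were positive by the authors' deposited table, as were 87.0% of all named genes by their most enriched peak. The 3 listed heart muscle markers of 10 were all negative, with a median of -1.51. Heart muscle genes outside that list went both ways after MI. Myh7 peaks ran from 2.70 to 4.42 and Actn2 peaks stood at 1.36 and 1.54, whereas the Myom1 peak stood at -1.58. With aavFto 6 of 7 listed fibroblast markers were negative (median -0.43), as were 3 of 6 macrophage markers (median -0.33) and 2 of 2 endothelial markers (median -0.65), beside 65.3% of all named genes. Of the 10 listed heart muscle markers 7 were positive there, with a median of 0.80. In the authors' test 2 heart muscle markers had a peak past the FDR of 0.05 after MI and 4 with aavFto. No gene of the other marker lists had one. Of all listed peaks, 14.7% passed it after MI and 1.72% with aavFto. By the most enriched peak, 7 of 77 named genes passed it after MI and 5 of 271 with aavFto. The markers were counted by any of their peaks, so these shares are not on the same footing. Of the defining fibroblast markers Pdgfra and Tcf21 had no listed peak in either table, and none of the 5 genes of the smooth muscle and pericyte list was listed. Pdgfrb, counted here with the fibroblast list, also marks pericytes, and was 1 of the 2 fibroblast-list genes positive after MI.

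The genes most like a member were sought among the 73 other genes listed in both tables, by the distance between the 2 log2 changes of the most enriched peaks. The measure rests on 2 comparisons, so the ranking describes these libraries only. The 2 changes of a gene need not come from the same site. For Col4a1 they came from the MI peak starting at 11239158 and the aavFto peak starting at 11217550, which do not overlap. Col3a1 and Col1a2 were nearest to Postn, at distances of 0.87 and 0.98, with 7.17 and 5.64 after MI and -0.67 and -0.29 with aavFto in the authors' deposited tables. Casq2, the calcium store protein, and Myh9, a nonmuscle myosin chain, were nearest to Sparc, at 0.22 and 0.51, and the authors' deposited tables gave 3.36 and 3.15 after MI and -1.07 and -0.38 with aavFto. Hspb7, a small heat shock protein, and the protease Ctsd were nearest to Col4a1, at 0.30 and 0.33, with 2.20 and 2.16 after MI and -0.23 and 0.07 with aavFto in the authors' deposited tables. For Bgn the nearest, Nppa, the natriuretic peptide gene, at 4.52 and -0.36 in the authors' deposited tables, and Col1a2, were 1.38 and 1.41 away. Those distances rest on the Bgn peak at -1.60 with aavFto, and its other peaks there stood at -0.85, -0.63 and -0.63.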

How the data were processed

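Per the labels' protocols, 200 µg of left ventricle RNA per group went through poly(A) selection, fragmentation and immunopurification with an anti-m6A antibody, and 50 bp single reads were sequenced. The submitters' processing notes name STAR 2.5.3a and the build mm10. The peak caller, its thresholds and the library scaling are not stated in the sources used here.

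Per the file headers, the authors gave each peak an enrichment p-value, the same p and its FDR as log10 values, a linear fold enrichment over input, and a log2 change with differential p and FDR as log10 values. The log10 values were converted for printing. Depth is unknown, and no p-value was computed. Gene IDs were matched to the RefSeq table of GRCm38.p6 (the assembly of mm10), and all IDs matched. Positions are 1-based. Length is the sum of a peak's blocks, and position is that of its middle base along the gene span. A gene's most enriched peak had the lowest log10 p. Calls were an absolute log2 change of at least 1 or 2, the authors' differential FDR under 0.05 and unadjusted p under 0.05.

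The members and lists were chosen with earlier results of these data known. Named genes were the 6 members, up to 4 listed genes of each related list and the 2 genes nearest to each member listed in both tables. Analyses used Python 3.11.15, pandas 2.3.3 and matplotlib 3.10.9, with the overlap and position functions tested on simulated data. Alternatives were 1 peak per gene, merged peaks, minimum enrichment, change and length, other thresholds and other overlap rules.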

Additional observations from a re-analysis of the deposited data

How the results depend on the processing

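No alternative turned a direction: 19 of 34 values stayed within the limits set for a change (1.5 times for counts, 0.1 for medians on the log2 scale) and 15 moved. For MI against sham, the count of positive peaks in the 6 genes went from 7 to 4 with 1 peak per gene, 3 with an enrichment log10 p of -5 or below and 4 with at least 100 nt, each time all of the peaks left. The count past a change of 1 went from 7 to 4 and 3 under the first 2 of these. The median of 5.08 became 4.19 with 1 peak per gene and 4.19 with at least 100 nt. The count of 0 past the FDR became 3 at an unadjusted p under 0.05. For aavFto against aavgnp, the 1 positive peak was lost (0) with 1 peak per gene, with an enrichment log10 p of -5 or below and with a change of at least 1. The count past a change of 1 went from 6 to 2 at a change of 2 and to 2 with 1 peak per gene. The median of -0.83 became -0.61 with 1 peak per gene and -1.66 with a change of at least 1. Fewer peaks are left under these settings by construction. No paired analysis was possible because each group had 1 library and the labels number no replicates. The tables used here give no read counts, so the reads behind the weak peaks of the MI table, such as the 60 nt Sparc peak, are unknown and its change of 6.45 has no interval.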
